A study of Mus musculus with 6 samples.

Results

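Chloride cotransporters and the kinases that set their activity were described in RNA-seq counts from newborn mouse brain. The members were the rows of the deposited count table with the symbols Slc12a2, Slc12a5, Slc12a4, Slc12a7, Wnk1, Wnk3 and Stk39, which are 7 of 24391 gene symbols, and all 7 were tested. The rule names them by symbol and uses no measured value. The samples were 6 frozen hemibrains taken at postnatal day 0, of which 3 were labelled Celf2 -/- (pups 2, 4 and 10) and 3 were labelled Celf2 +/- (pups 6, 7 and 11). The protein CELF2 binds RNA and acts in its splicing, stability and translation. Control pups keep 1 Celf2 allele, which makes this a comparison of null with heterozygous animals, with no wild-type brain. The labels give no litter, sex, strain, Cre driver or side of the brain, and they do not state that the hemibrains of a genotype came from separate animals, so any p-value reflects only how far these 6 samples spread.

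The direction in which GABA drives a neuron depends on how much chloride the cell holds. NKCC1, the product of Slc12a2, carries chloride into cells together with sodium and potassium, whereas the KCC proteins carry chloride out together with potassium. In immature neurons chloride is kept high and GABA tends to depolarise. As KCC2, the neuronal transporter encoded by Slc12a5, accumulates around and after birth in the rodent forebrain, chloride falls and GABA becomes inhibitory, and caudal brain regions pass through this change earlier than the cortex. WNK kinases sense chloride and activate SPAK, the product of Stk39, and its relative OSR1, and the phosphorylation that follows stimulates NKCC1 and restrains the KCCs. RNA levels report none of this phosphorylation.

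CELF proteins bind GU-rich RNA, so the annotated 3′ UTRs of the members were searched for a pair of such elements, and the site found in Slc12a5 is shown because that gene carries the longest repeat among the members. A TG repeat of 11 letters (TGTGTGTGTGT, read on the transcript strand, with U in the RNA) was present in 2 of the 7 members, Slc12a5 and Slc12a2. The share was 8.32% of 14437 searched genes and 18.4% of the 4368 searched genes with a 3′ UTR of at least 2000 bases, a length that 4 members reach. The GU-rich element of 11 letters, TGTTTGTTTGT, was found in 0 of the 7 members and in 4.16% of searched genes. Among the searched genes with a 3′ UTR of at least 2000 bases its share was 9.91%. The Slc12a5 repeat spans 36 bases and begins 1179 bases after the stop codon in a 3′ UTR of 2260 bases, and the repeat in the 2770 bases of Slc12a2 spans 15. A stretch of 30 bases is shown, which opens with the bases just before the repeat and goes on into it, with the first 11-letter match in capitals.
Slc12a5 3′ UTR: agccccaccTGTGTGTGTGTgtgtgtgtgt
These matches describe the letters of the reference transcript and do not show binding.

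The count of Slc12a5 joins transcripts from 2 annotated starts on the plus strand of chromosome 2, which lie 7142 bases apart, and both are shown because the table cannot separate them. The upstream start belongs to the KCC2a form and the downstream start to KCC2b, the main form of the mature brain. Each window holds 250 bases before the start and 50 after it, in RefSeq's GRCm38.p6 build, at chr2:164960596-164960895 and chr2:164967738-164968037. Capitals mark the E-box CACGTG, the letters bound by the USF factors.
Slc12a5 upstream start: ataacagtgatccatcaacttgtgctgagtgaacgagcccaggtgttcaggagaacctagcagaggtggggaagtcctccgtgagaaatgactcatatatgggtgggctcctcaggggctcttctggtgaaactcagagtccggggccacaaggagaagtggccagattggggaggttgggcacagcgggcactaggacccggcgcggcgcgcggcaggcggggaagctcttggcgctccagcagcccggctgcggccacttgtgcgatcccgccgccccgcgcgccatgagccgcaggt
Slc12a5 downstream start: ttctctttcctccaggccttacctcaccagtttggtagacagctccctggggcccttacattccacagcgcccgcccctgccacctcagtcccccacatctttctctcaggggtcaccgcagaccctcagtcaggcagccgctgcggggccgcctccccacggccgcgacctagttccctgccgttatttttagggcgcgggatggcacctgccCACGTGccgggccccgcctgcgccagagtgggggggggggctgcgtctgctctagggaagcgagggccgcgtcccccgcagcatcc
The E-box begins at position -36 of the downstream window and has no match in the upstream one. It occurred in 3 of 8 windows of 6 members, and in 7.15% of 32851 windows of all genes. The other 2 windows with a match are overlapping ones of Slc12a7 that hold the same match. Windows of Slc12a2 are not reported here. The letters GCGNGGGCG, bound by EGR factors, had no match on either strand in those 8 windows, against 5.55% of all windows.

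None of the 7 members passed the test across all genes. By edgeR's quasi-likelihood test 0 of 7 passed an adjusted p of 0.05, with adjusted p-values between 0.659 and 0.992, and DESeq2 and limma-voom also called 0. Over all genes edgeR called 0.00628% of 15925 and DESeq2 0.402%. At an unadjusted p of 0.05, 1 member was counted, Slc12a7, which was higher, where 7.06% of all genes were counted, 4.13% of them higher and 2.93% lower as shares of all genes. Positive fold changes were found for 5 members and negative ones for 2, where 49.7% of all genes were positive, and with library size alone as the scaling Slc12a2 turned negative. That scaling also moved Slc12a5 to -0.17, Slc12a4 to 0.012, Slc12a7 to 0.25, Wnk1 to 0.026, Wnk3 to 0.035 and Stk39 to -0.094, with a median of -0.086 over all genes. With TMM scaling the members' median log2 fold change was 0.10, beside -0.00093 over all genes tested. Single counts of members ranged from 451 to 11548 per library, so that counting error alone was at most 4.71% of any value.

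**Figure D1:**
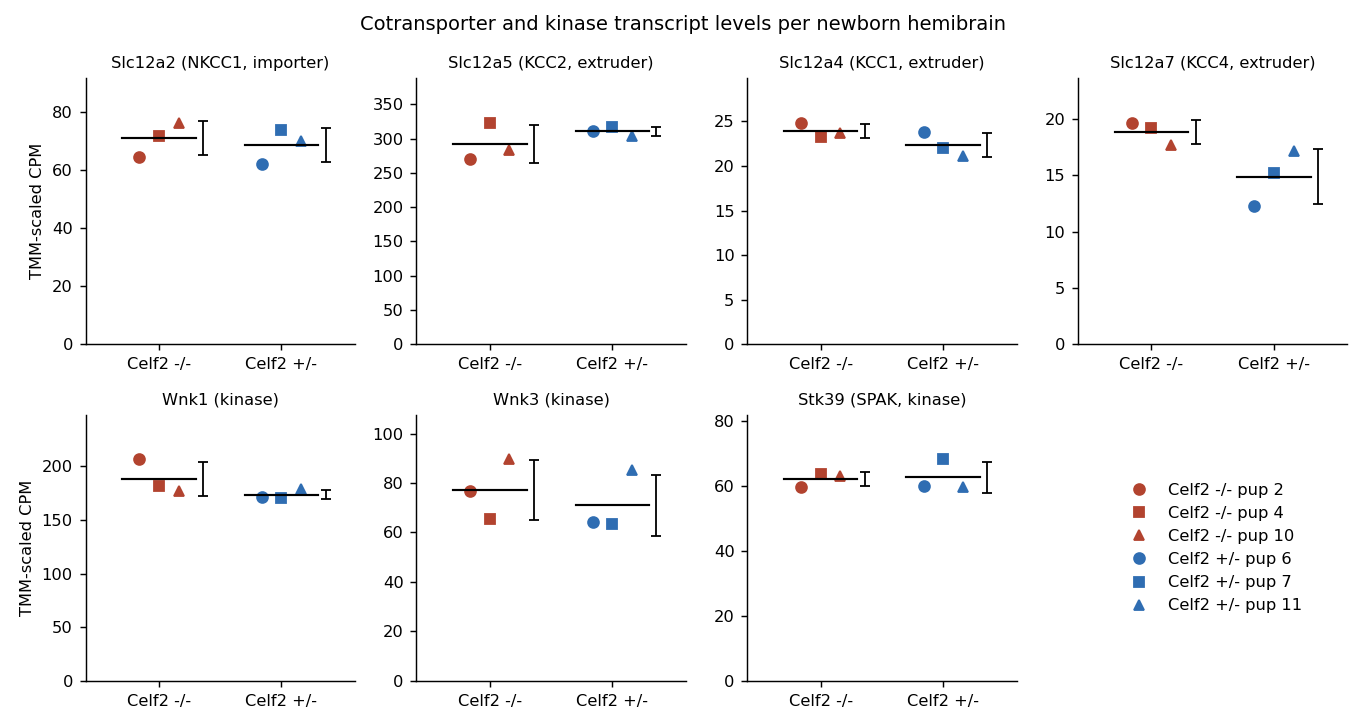
TMM-scaled CPM (y axis, from 0) of each member in the 3 libraries labelled Celf2 -/- (red, left) and the 3 labelled Celf2 +/- (blue, right), with one symbol per pup, lines for the means and bars for the SD. The groups share their range for 6 genes, and for Slc12a7 every red point lies above every blue one.

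Slc12a2, the chloride importer NKCC1, was at 64.8, 72.0 and 76.4 CPM in pups 2, 4 and 10 labelled Celf2 -/-, and at 62.3, 74.0 and 70.2 CPM in pups 6, 7 and 11 labelled Celf2 +/-. CPM is the count scaled to library size after TMM normalisation. The groups overlapped almost entirely, with the lowest value in pup 6 and the highest in pup 10. Means were 71.1 ± 5.89 CPM in libraries labelled Celf2 -/- and 68.8 ± 5.94 CPM in those labelled Celf2 +/- (SD, n = 3 each). The log2 fold change was 0.05 (SE 0.10, edgeR adjusted p = 0.959). Its 95% interval placed the null level between 89.1% and 119.7% of the heterozygous level. The fold change was -0.034 when libraries were scaled by their totals alone.

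Slc12a5, the neuronal extruder KCC2, was the most abundant member. It was at 271, 323 and 283 CPM in pups 2, 4 and 10 labelled Celf2 -/-, and at 311, 317 and 304 CPM in pups 6, 7 and 11 labelled Celf2 +/-. Pups 2 and 10 lay below every heterozygous library and pup 4 lay above them all, so the groups overlapped. Means were 292 ± 27.5 CPM in libraries labelled Celf2 -/- and 311 ± 6.16 CPM in those labelled Celf2 +/- (SD, n = 3 each), and the log2 fold change was -0.09 (SE 0.08, edgeR adjusted p = 0.887). The null level was 94.1% of the heterozygous level, with a 95% interval of 83.6% to 106%. Without pup 4 the fold change was -0.17 and without pup 2 it was -0.034, and neither passed, although the edgeR unadjusted p was 0.0426 without pup 4. Pup 2 is also the library with 11.8% of its counts on Rn45s, the ribosomal RNA precursor, against 0.194% to 1.27% in the others. With Rn45s and other structural RNAs removed before the fit, the Slc12a5 fold change was -0.084. Any other part of this library's make-up in the Slc12a5 value was not tested.

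The ratio of Slc12a5 to Slc12a2 sets KCC2 RNA over NKCC1 RNA, leaves out the other KCC genes and needs no scaling between libraries. It was 4.18, 4.49 and 3.70 in pups 2, 4 and 10 labelled Celf2 -/-, and 4.98, 4.28 and 4.34 in pups 6, 7 and 11 labelled Celf2 +/-. Slc12a5 CPM exceeded Slc12a2 CPM in every library. Pup 10 had the lowest ratio and pup 6 the highest, and pup 4 lay above 2 of the 3 heterozygous libraries. The mean was 4.12 ± 0.399 in libraries labelled Celf2 -/- and 4.53 ± 0.390 in those labelled Celf2 +/- (SD, n = 3 each). The log2 ratio differed by -0.14 (SE 0.11; exact two-sided permutation p = 0.4, where 0.1 is the smallest p that 3 against 3 libraries allow). Per kilobase of the deposited gene length the ratio was 4.46 ± 0.432 in libraries labelled Celf2 -/- and 4.91 ± 0.423 in those labelled Celf2 +/-, which carries the same log2 difference because the lengths are constant.

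**Figure D2:**
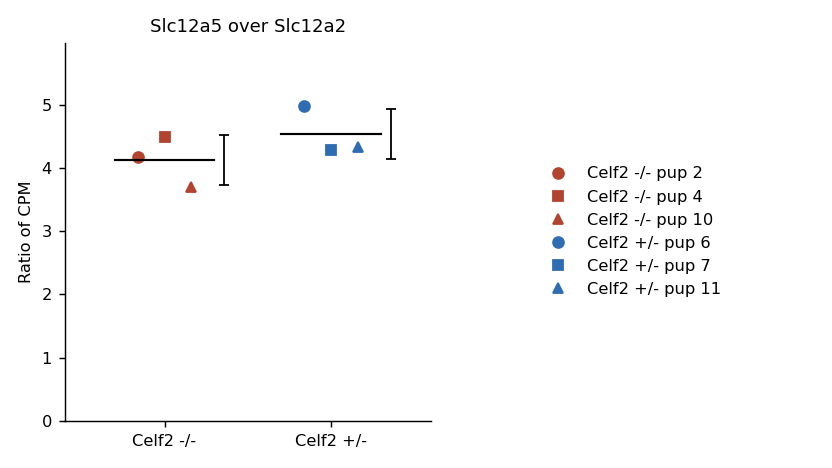
The ratio of Slc12a5 to Slc12a2 CPM per library (y axis, from 0). Red points are libraries labelled Celf2 -/- and blue points those labelled Celf2 +/-, with lines for means and bars for the SD, and the groups overlap. The mean ratio is 4.12 in libraries labelled Celf2 -/- and 4.53 in those labelled Celf2 +/-.

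Among the other extruders, Slc12a7 stood apart in its values and did not pass the test. KCC4, its product, is a potassium-chloride cotransporter best known from epithelia. It was at 19.7, 19.2 and 17.6 CPM in pups 2, 4 and 10 labelled Celf2 -/-, and at 12.3, 15.2 and 17.2 CPM in pups 6, 7 and 11 labelled Celf2 +/-. Every null library lay above every heterozygous one, although pups 10 and 11 lay close together. Groups without overlap were found for 1 of these 7 members and for 12.7% of all genes tested, of which the higher ones made 6.21% and the lower ones 6.47% of all genes. The means were 18.8 ± 1.05 CPM in libraries labelled Celf2 -/- and 14.9 ± 2.47 CPM in those labelled Celf2 +/- (SD, n = 3 each), giving a log2 fold change of 0.34 (SE 0.14, 95% interval 0.03 to 0.65, edgeR unadjusted p = 0.0338, adjusted p = 0.659). The DESeq2 adjusted p was 0.581. The fold change was 0.22 without pup 6 and 0.46 without pup 11, and it passed in neither case. In edgeR's quasi-likelihood test the unadjusted p-value was above 0.05 with library size alone (0.134), with the Y-linked Ddx3y as a covariate (0.0516), and without pup 2 (0.0821), pup 4 (0.0765), pup 6 (0.147) or pup 7 (0.0634).

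Slc12a4, which encodes the widely expressed KCC1, was at 24.9, 23.2 and 23.7 CPM in pups 2, 4 and 10 labelled Celf2 -/-, and at 23.8, 22.0 and 21.2 CPM in pups 6, 7 and 11 labelled Celf2 +/-. Of all members it varied least within groups, with a pooled SD of 0.07 on the log2 CPM scale, which was smaller in only 10.6% of the tested genes. The log2 fold change was 0.10 (SE 0.10, edgeR adjusted p = 0.912), and the 95% interval ran from 91.3% to 126% of the heterozygous level.

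The kinases gave no call. Wnk1, a chloride-sensing kinase expressed in most tissues, was at 206, 181 and 177 CPM in pups 2, 4 and 10 labelled Celf2 -/-, and at 171, 171 and 178 CPM in pups 6, 7 and 11 labelled Celf2 +/-. Pup 2 was the high one, and pup 10 lay below pup 11. The log2 fold change was 0.12 (SE 0.07, edgeR adjusted p = 0.816), with a 95% interval of 97.1% to 121% of the heterozygous level, and it was 0.05 without pup 2.

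Wnk3, an X-linked kinase of the same family that is prominent in brain, was at 76.8, 65.3 and 89.5 CPM in pups 2, 4 and 10 labelled Celf2 -/-, and at 64.2, 63.4 and 85.1 CPM in pups 6, 7 and 11 labelled Celf2 +/-. Its highest value in each group came from pups 10 and 11. The pooled SD within groups was 0.23 on the log2 CPM scale, the largest among the members, and 71.0% of tested genes had a smaller one. The log2 fold change was 0.12 (SE 0.14, edgeR adjusted p = 0.926). Without single libraries it ran between 0.0021, without pup 10, and 0.27, without pup 11, and 0.13 with pups 10 and 11 as a term in the fit.

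Stk39, whose product SPAK phosphorylates the cotransporters, was at 59.7, 63.5 and 63.2 CPM in pups 2, 4 and 10 labelled Celf2 -/-, and at 60.0, 68.1 and 59.8 CPM in pups 6, 7 and 11 labelled Celf2 +/-. All 3 null values fell within or just below the heterozygous range. Its log2 fold change was -0.01 (SE 0.09, edgeR adjusted p = 0.992), the smallest in size among the members, with a 95% interval of 86.9% to 113% of the heterozygous level.

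**Figure D3:**
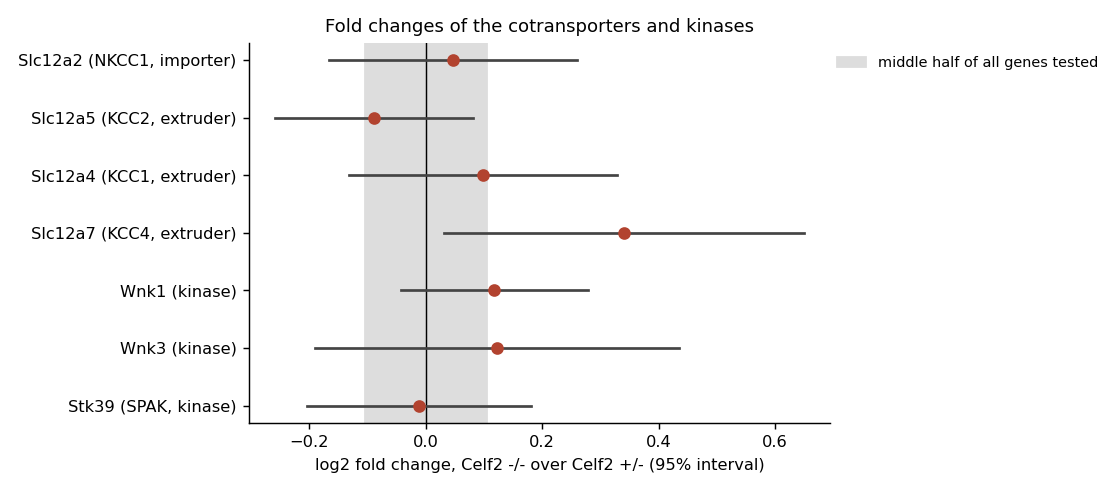
Log2 fold change of each member (x axis, Celf2 -/- over Celf2 +/-) with its 95% interval from edgeR, in n = 3 libraries each. The grey band is the interquartile range over 15925 tested genes, -0.10 to 0.11, and the Slc12a7 interval, 0.03 to 0.65, is the one that leaves out 0.

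On the length-scaled level, CPM per kilobase, which allows genes to be set beside each other, the members spanned a 15.2-fold range. Slc12a5 stood at 48.5 ± 4.57 CPM per kilobase in libraries labelled Celf2 -/- and 51.6 ± 1.02 CPM per kilobase in those labelled Celf2 +/- (SD, n = 3 each), and over all 6 libraries it ranked 1497 among 15925 tested genes. In libraries labelled Celf2 -/- the mean CPM per kilobase was 19.1 for Stk39, 15.6 for Wnk1, 10.9 for Slc12a2, 7.42 for Wnk3, 6.24 for Slc12a4 and 3.67 for Slc12a7. In libraries labelled Celf2 +/- it was 19.3 for Stk39, 14.4 for Wnk1, 10.6 for Slc12a2, 6.82 for Wnk3, 5.83 for Slc12a4 and 2.90 for Slc12a7, which is the same order. Wnk3 and Slc12a4 overlapped across libraries, since the lowest Wnk3 level was 6.09 and the highest Slc12a4 level 6.49 CPM per kilobase. The other neighbours in this order did not overlap in any library. The order rests on 1 deposited length per gene and not on the transcripts in use.

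**Figure D4:**
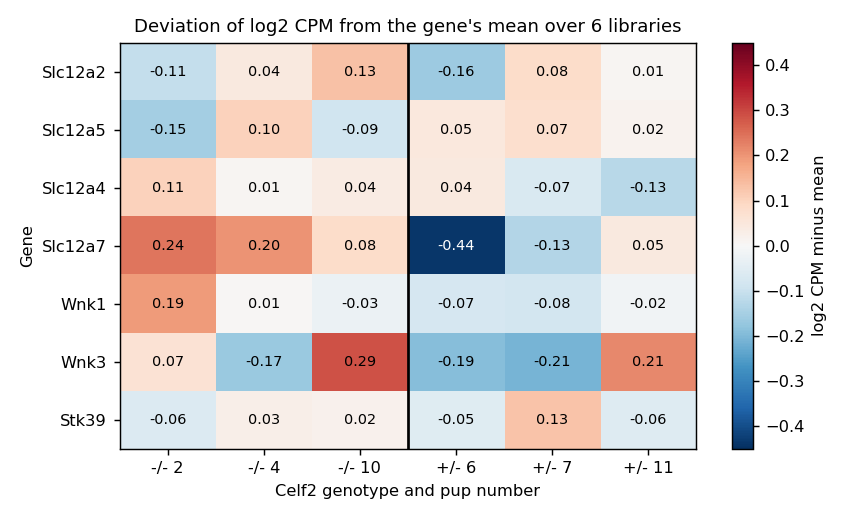
Log2 CPM of each member minus that gene's mean over the 6 libraries (colour and printed value), with libraries labelled Celf2 -/- left of the line and those labelled Celf2 +/- right of it. Wnk3 is high in pups 10 (0.29) and 11 (0.21), and Slc12a7 is lowest in pup 6 (-0.44).

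Each member ordered the 6 libraries differently. Pup 2 held the lowest Slc12a5 and Stk39 values and the highest Slc12a4, Slc12a7 and Wnk1 values of the series. The genes whose centred log2 CPM lay nearest to that of Slc12a5, among 10154 genes with a mean of at least 10 CPM, were Gaa, which encodes a lysosomal glucosidase, Myo6, which encodes a myosin motor, and Lgmn, which encodes a lysosomal protease. Their root mean square differences from Slc12a5 over the 6 libraries were 0.021, 0.022 and 0.023 log2 units. Nearest to Slc12a2 were Usp6nl at 0.028, Twsg1 at 0.028 and Gtf2ird1 at 0.031 log2 units. The measure favours genes that vary little, and nothing is drawn from it about shared function.

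The genes around the cotransporters gave no call either. In 4 lists of 59 genes, all found in the table, 57 were tested and edgeR and DESeq2 each called 0 of them. At an unadjusted p of 0.05, edgeR counted 10 of the 57, of which 5 were higher and 5 lower in libraries labelled Celf2 -/-. That is 17.5%, beside 7.06% of all genes. Groups did not overlap for 15 genes, or 26.3%, beside 12.7% of all genes. The lists were chosen with earlier results of these data known, so these shares are no test of enrichment. The median log2 fold change over the 57 was 0.05, with 35 positive and 22 negative, and with library size alone as the scaling 22 were positive and 35 negative. That scaling also moved the median over all genes tested, to -0.086, which applies to the library-size counts of each list below.

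Slc12a9, an orphan transporter of the Slc12 family outside these lists, averaged 41.2 ± 2.35 CPM in libraries labelled Celf2 -/- and 45.6 ± 1.12 CPM in those labelled Celf2 +/- (SD, n = 3 each; log2 fold change -0.15, edgeR adjusted p = 0.816), and Slc12a8 was at -0.43 (adjusted p = 0.892) on at most 84 counts per library. The kidney transporters Slc12a1 and Slc12a3 had at most 18 counts in any library and were not tested.

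Of 12 genes of the WNK and SPAK pathway, 8 had positive and 4 negative fold changes, with a median of 0.10, and 0 passed. With library size alone 7 were positive and 5 negative, with a median of 0.016, beside -0.086 over all genes tested. Wnk2, a brain-enriched WNK kinase, had the smallest p, at 276 ± 30.6 CPM in libraries labelled Celf2 -/- and 237 ± 8.28 CPM in those labelled Celf2 +/- (SD, n = 3 each; log2 fold change 0.22, edgeR unadjusted p = 0.0213, adjusted p = 0.639). Single libraries held 312, 256 and 261 CPM in pups 2, 4 and 10 and 245, 237 and 228 CPM in pups 6, 7 and 11, so pup 2 was again the high one. By level per kilobase the leading genes were the phosphatase subunits Ppp1ca (log2 fold change -0.08) and Ppp1cb (-0.05) and the SPAK-binding scaffold Cab39 (0.01), with adjusted p-values of 0.877, 0.926 and 0.992.

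Of 14 regulators and partners of KCC2, 9 were positive and 5 negative, with a median of 0.05, and with library size alone 3 were positive and 11 negative. Bdnf, a neurotrophin, had the smallest p. It was at 4.73, 7.23 and 5.81 CPM in pups 2, 4 and 10 labelled Celf2 -/-, and at 8.31, 8.48 and 7.72 CPM in pups 6, 7 and 11 labelled Celf2 +/- (log2 fold change -0.46, edgeR unadjusted p = 0.0253, adjusted p = 0.639). Every null library lay below every heterozygous one. The most abundant genes per kilobase were Ckb, a brain creatine kinase (log2 fold change -0.06), Epb4.1l1, a cytoskeletal protein that binds KCC2 (0.07), and Usf1, an E-box factor (-0.0091), with adjusted p-values of 0.952, 0.902 and 0.992.

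Among 12 genes of bicarbonate transport and carbonic anhydrases, 5 were positive and 7 negative, with a median of -0.10, and with library size alone 3 were positive and 9 negative. The smallest p belonged to Slc4a8, a sodium-driven chloride-bicarbonate exchanger, at 118, 120 and 112 CPM in pups 2, 4 and 10 labelled Celf2 -/-, and 92.9, 95.1 and 108 CPM in pups 6, 7 and 11 labelled Celf2 +/- (log2 fold change 0.24, edgeR unadjusted p = 0.0141, adjusted p = 0.594). The chloride-bicarbonate exchanger Slc4a3, which can load neurons with chloride, was at -0.16 (adjusted p = 0.730), Car10, a carbonic anhydrase-related protein, at -0.17 (adjusted p = 0.842) and the exchanger Slc4a10 at -0.03 (adjusted p = 0.982).

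Chloride channel genes numbered 19 tested of 21, with 13 positive and 6 negative fold changes and a median of 0.07, or 9 positive and 10 negative with library size alone. Lrrc8b, a subunit of volume-regulated anion channels, had the smallest p of all the lists, at 64.7, 65.4 and 69.6 CPM in pups 2, 4 and 10 labelled Celf2 -/-, and 49.4, 55.2 and 55.0 CPM in pups 6, 7 and 11 labelled Celf2 +/-. Every null library lay above every heterozygous one by a clear gap. The log2 fold change was 0.32 (SE 0.09, edgeR unadjusted p = 0.00316, adjusted p = 0.496, DESeq2 adjusted p = 0.102), so it did not pass. The tweety-family genes Ttyh3 (0.13, adjusted p = 0.690) and Ttyh1 (-0.26, adjusted p = 0.550) and the intracellular exchanger gene listed as Clcn4-2 (0.04, adjusted p = 0.953) led the list by level per kilobase.

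**Figure D5:**
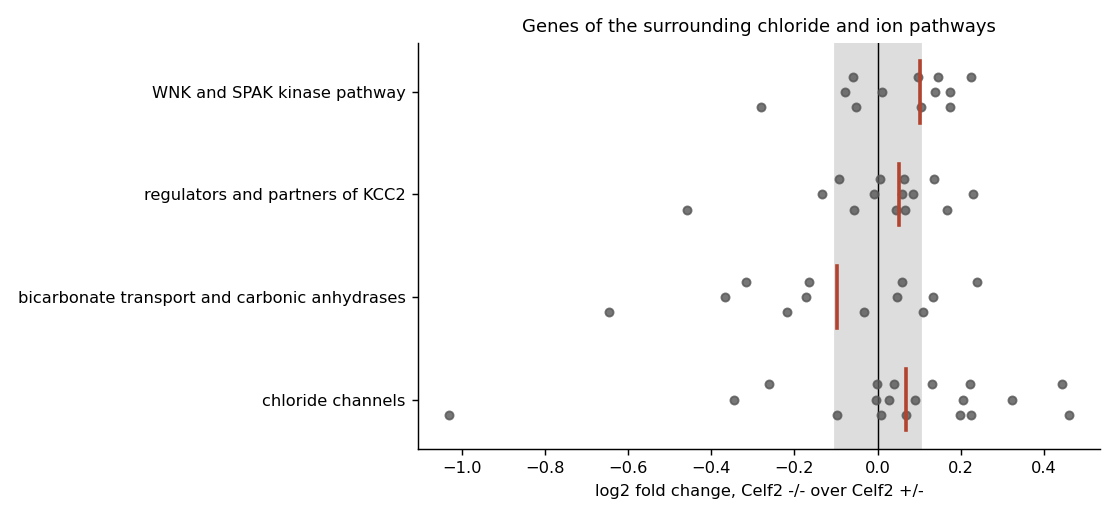
Log2 fold change (x axis, Celf2 -/- over Celf2 +/-) of the 57 tested genes of 4 lists, one point per gene, with the list median as a red bar. The grey band is the interquartile range over all tested genes, and list medians lie between -0.10 and 0.10.

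The libraries held between 28831997 and 36531980 counts. Celf2 itself was at 390 ± 58.4 CPM in libraries labelled Celf2 -/- and 408 ± 48.5 CPM in those labelled Celf2 +/- (SD, n = 3 each; edgeR adjusted p = 0.955), and since a gene total hides which part of the gene was sequenced, it does not check the genotypes, which are taken from the labels. Among the marker lists edgeR called 0 genes, and DESeq2 called 5 hindbrain and spinal cord and 2 telencephalic markers. Over all genes edgeR called 0.00628% and DESeq2 0.402%. Fold changes were positive for 49.7% of all genes tested, and groups did not overlap for 12.7% of them, taken gene by gene. Summed levels of the hindbrain and spinal cord, telencephalic and astrocyte lists did not overlap between the labels. Those of 12 hindbrain and spinal cord markers were 5.40, 23.8 and 24.4 CPM in pups 2, 4 and 10 labelled Celf2 -/-, and 44.8, 209 and 35.5 CPM in pups 6, 7 and 11 labelled Celf2 +/-, with all 10 tested markers negative. Pups 2 and 7 alone set the outer limits, and the range without them was 23.8 to 24.4 CPM in libraries labelled Celf2 -/- and 35.5 to 44.8 CPM in those labelled Celf2 +/-. Summed CPM of 10 telencephalic markers lay between 1451 and 1684 in libraries labelled Celf2 -/- and between 1108 and 1223 in those labelled Celf2 +/-, with 10 of 10 positive, and of 8 astrocyte markers between 1091 and 1344 in libraries labelled Celf2 -/- and between 1412 and 1492 in those labelled Celf2 +/-, with 8 of 8 negative. Gene by gene, groups did not overlap for 8 of the 10 tested hindbrain and spinal cord markers, 6 of 10 telencephalic and 3 of 8 astrocyte markers. The separation of the astrocyte sums rests on Apoe, and the sums overlap without it. Apoe was at 429, 573 and 551 CPM in pups 2, 4 and 10, and at 695, 700 and 640 CPM in pups 6, 7 and 11. The summed levels of the other lists overlapped between the labels. In libraries labelled Celf2 -/- summed CPM lay between 6443 and 6946 for 8 neuronal markers, 616 and 860 for 8 choroid plexus markers, 359 and 448 for 8 oligodendrocyte lineage markers, 221 and 272 for 8 endothelial markers, and 4.86 and 7.45 for 6 erythroid markers. In libraries labelled Celf2 +/- they lay between 6204 and 7006 for neuronal, 626 and 929 for choroid plexus, 388 and 477 for oligodendrocyte lineage, 217 and 250 for endothelial, and 6.05 and 10.3 for erythroid markers. In the erythroid list 4 globin genes were listed at 0 in every library, and in the other lists no marker was at 0 throughout. The part of regional or cell type content in the cotransporter values was not tested, and in bulk tissue fewer cells of a type and less RNA per cell cannot be told apart.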

How the data were processed

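The authors deposited raw counts, 1 whole number per gene and library, with a length in bases for each gene. The kit named per the labels' protocols, after TRIzol extraction, is a stranded low-input one for total RNA, whereas the molecule field and design text name poly(A) RNA, a conflict not resolved here. Per the submitters' processing notes, CASAVA, cutadapt, STAR, Picard, bedtools, MACS2 and the builds mm9 and hg19 were used. How reads were assigned to genes (tool, strand, gene models) is not given in the sources used here, which leaves overlapping and antisense genes uncertain.

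Genes were kept by edgeR's filterByExpr (15925 of 24391) and tested with edgeR 4.0.16 in R 4.3.3 (TMM, quasi-likelihood, robust dispersion, Benjamini-Hochberg over all genes tested, threshold 0.05). SE is the fold change over the square root of F. DESeq2 1.42.0 and limma 3.58.1 were alternatives, with other scalings, filters, covariates and each library left out. Steps were tested on simulated counts. Every pair of libraries differed by more than counting noise (lowest chi-square per gene 13.4). Pairs with pup 2 lay between 245 and 301, and all other pairs between 13.4 and 42.2, with Rn45s among the genes compared. Intervals of single counts cover counting error only.

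The members and lists were chosen with earlier results of these data known. The text names all 7 members and Celf2, of each pathway list any gene that passes, the 3 with the highest level per kilobase and the one with the smallest p among the genes reported, and for Slc12a5 and Slc12a2 the 3 genes nearest in pattern. Slc12a1, Slc12a3, Slc12a8 and Slc12a9 are named as further Slc12 genes. Some pathway genes are not reported here, and counts over lists leave them out. Epb41l1 and Clcn4 were matched by older symbols. The 3′ UTRs were the longest annotated per gene in GENCODE M21 (GRCm38), for 90.7% of tested genes, and served for sequence only. Promoter windows are RefSeq's.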

Additional observations from a re-analysis of the deposited data

How the results depend on the processing

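The 7 members were called in none of the 17 alternatives, where their adjusted p-values lay between 0.355 (Slc12a7, pups 10 and 11 as a term) and 0.9999. Slc12a5, Slc12a4, Slc12a7, Wnk1 and Wnk3 kept their direction in all 17, but with library size alone Slc12a4 was 0.012, Wnk1 0.026, Wnk3 0.035 and Slc12a5 -0.17. Slc12a2 turned to -0.034 when scaled by library size alone (median of all genes -0.086), to -0.014 with the Y-linked Ddx3y as a covariate, and ran between -0.019 and 0.11 without single libraries. Stk39 lay between -0.044 and 0.053 without single libraries, and was -0.094 with library size alone and -0.055 with Ddx3y. The ranges without single libraries were -0.17 to -0.034 for Slc12a5, 0.061 to 0.15 for Slc12a4, 0.22 to 0.46 for Slc12a7, 0.049 to 0.16 for Wnk1 and 0.0021 to 0.27 for Wnk3. The log2 difference of the Slc12a5 to Slc12a2 ratio lay between -0.20 and -0.062 without single libraries. The number of genes called, 1 in edgeR with 1124 at an unadjusted p of 0.05, was 0 with DESeq2 size factors, structural RNAs removed, a CPM minimum, limma-voom or no robust estimation, 2 with library size alone or upper-quartile factors, 3 without a low-count filter, 10 with the Ddx3y covariate, 11 with pups 10 and 11 as a term, 64 by DESeq2 and 0 to 4 without single libraries. The cause was not tested. Genes of the pathway lists, an alternative added after the data were seen, were called in 0 of these settings. No paired analysis was made, because the labels give no litter or batch by which to pair libraries. With 3 libraries a group, the intervals given bound each fold change before any adjustment over genes.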
